A study of Chromochloris zofingiensis with 12 samples.

Results

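The 6 genes described here encode the enzymes of the first committed steps of carotenoid synthesis in the green microalga *Chromochloris zofingiensis*: 2 phytoene synthase genes (PSY, Cz05g32220 and Cz05g32230), 3 phytoene desaturase genes (PDS, Cz02g32280, Cz07g17250 and Cz08g09110) and 1 ζ-carotene desaturase gene (ZDS, Cz10g17010). They were taken by name from the study's list of 25 carotenoid pathway genes and are 6 of 15274 genes in the expression table. All 6 were expressed in every library and entered every test, which covered 14916 genes. Wild-type cells of strain CCAP 211/14 were grown in reactors whose volume was renewed with fresh feed at 0.5 per day. HL 1 mM cultures had high light (HL, a daily maximum of 1000 µE per square metre and second) and 1 mM nitrate in the feed. LL 1 mM cultures had low light (LL, a maximum of 300 µE) and 1 mM nitrate, HL 10 mM cultures high light and 10 mM nitrate, and LL 10 mM cultures, the unstressed control, low light and 10 mM nitrate. All cultures shared the medium, the light and dark cycle and the sampling time, 4 h after the light came on, and polyadenylated RNA of whole cells was sequenced in 3 libraries per condition. The study states that samples were taken on 3 consecutive days and analysed in triplicate. The labels number the replicates, and the sources used here do not say whether a number is a reactor, a day or a repeat of one culture. Libraries of a condition may thus come from 1 culture sampled on several days. The p-values measure the spread between these libraries, which may be technical or between days, and not a spread between independent cultures.

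PSY joins molecules of geranylgeranyl diphosphate into phytoene, the colourless precursor of all carotenoids, and is widely regarded as a control point of the pathway in plants and algae. PDS then introduces double bonds and yields a ζ-carotene, which ZISO isomerises. ZDS adds further double bonds, and carotenoid isomerases (CRTISO) complete the red lycopene. In plants PDS and ZDS pass their electrons to plastoquinone, and cyclases, hydroxylases and ketolases turn lycopene into lutein, β-carotene and, in this alga, astaxanthin.

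Values are FPKM (sequenced fragments of a gene relative to its transcript length and to the library's mapped total) as deposited. The nitrate conditions differed in the whole distribution of these values. The median gene stood at 17.1 to 20.1 FPKM in the 1 mM libraries, against 12.1 to 14.0 FPKM in the 10 mM libraries, and the 10 most abundant genes took 7.28 to 8.54% of the summed FPKM at 1 mM, against 13.5 to 18.4% at 10 mM. As in the study, the tests used quantile-normalized values, which give every library the same distribution, and the nitrate contrasts of these genes are also given with their dependence on the scaling. FPKM measures a share of the sequenced mRNA, so a smaller amount of a transcript per cell and a larger amount of other mRNA cannot be told apart. On the normalized log2 scale libraries of the same condition correlated at 0.9866 or more. LL 1 mM replicate 3, however, correlated more with HL 1 mM replicate 3 (0.9918) than with LL 1 mM replicate 1 (0.9911).

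Transcripts of the pathway's first steps spanned more than an order of magnitude. Phytoene desaturase Cz02g32280 had 148, 147 and 137 FPKM in HL 1 mM, 128, 132 and 118 FPKM in LL 1 mM, 159, 170 and 169 FPKM in HL 10 mM, and 140, 142 and 133 FPKM in LL 10 mM. In deposited FPKM its HL 10 mM libraries lay above all others and its LL 1 mM libraries below all others. After quantile normalization its HL 10 mM (157 to 169) and LL 10 mM libraries (147 to 160) overlapped. It contributed most of the summed PDS signal, 82.3% ± 0.73, 85.6% ± 1.73, 83.3% ± 0.50 and 86.0% ± 1.38 in HL 1 mM, LL 1 mM, HL 10 mM and LL 10 mM (SD, n = 3 each).

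The other PDS genes were minor transcripts. Cz08g09110 had 24.0, 21.8 and 18.7 FPKM in HL 1 mM, 11.7, 14.5 and 15.0 FPKM in LL 1 mM, 21.1, 23.5 and 24.6 FPKM in HL 10 mM, and 10.8, 12.7 and 14.4 FPKM in LL 10 mM. In deposited FPKM all of its HL libraries thus lay above all of its LL libraries, at either nitrate level. After quantile normalization HL 1 mM replicate 3 (14.1) lay below LL 10 mM replicates 2 and 3 (16.1 and 17.5). The share of all genes that separate in this way was not counted, here or for the other genes. Cz07g17250, the least abundant of the 6, had 9.59, 8.45 and 10.2 FPKM in HL 1 mM, 7.08, 7.40 and 7.86 FPKM in LL 1 mM, 10.9, 9.47 and 10.7 FPKM in HL 10 mM, and 10.0, 9.39 and 10.1 FPKM in LL 10 mM. In deposited FPKM its LL 1 mM libraries were the lowest, and the other conditions overlapped. After quantile normalization its 1 mM libraries lay at 5.58 to 6.66 and its 10 mM libraries at 11.7 to 13.5, without overlap. Between 29.3% and 43.5% of the genes tested had a lower mean of deposited FPKM than Cz07g17250 in the same condition. Between 41.8% and 63.2% had a lower mean than Cz08g09110.

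ZDS, a single gene in the list, had 130, 125 and 116 FPKM in HL 1 mM, 107, 105 and 97.6 FPKM in LL 1 mM, 172, 166 and 162 FPKM in HL 10 mM, and 99.8, 108 and 106 FPKM in LL 10 mM. In deposited FPKM its HL 10 mM libraries were highest, its HL 1 mM libraries were intermediate, and the LL conditions overlapped at the bottom. After quantile normalization its HL 1 mM (109 to 119) and LL 10 mM libraries (111 to 122) overlapped, with LL 1 mM (93.4 to 103) below them.

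The PSY genes carry neighbouring identifiers. PSY Cz05g32220 had 96.5, 95.7 and 89.8 FPKM in HL 1 mM, 75.8, 78.9 and 73.5 FPKM in LL 1 mM, 83.1, 82.7 and 81.1 FPKM in HL 10 mM, and 83.8, 80.1 and 67.8 FPKM in LL 10 mM. Its HL 1 mM libraries were above all others on this scale, and the LL 10 mM libraries spread over the range of the remaining conditions. PSY Cz05g32230 had 135, 136 and 119 FPKM in HL 1 mM, 119, 114 and 105 FPKM in LL 1 mM, 128, 125 and 114 FPKM in HL 10 mM, and 122, 107 and 105 FPKM in LL 10 mM. In deposited FPKM every pair of conditions overlapped for this gene. After quantile normalization its LL 1 mM libraries (100 to 115) lay below its LL 10 mM libraries (119 to 135).

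**Figure D1:**
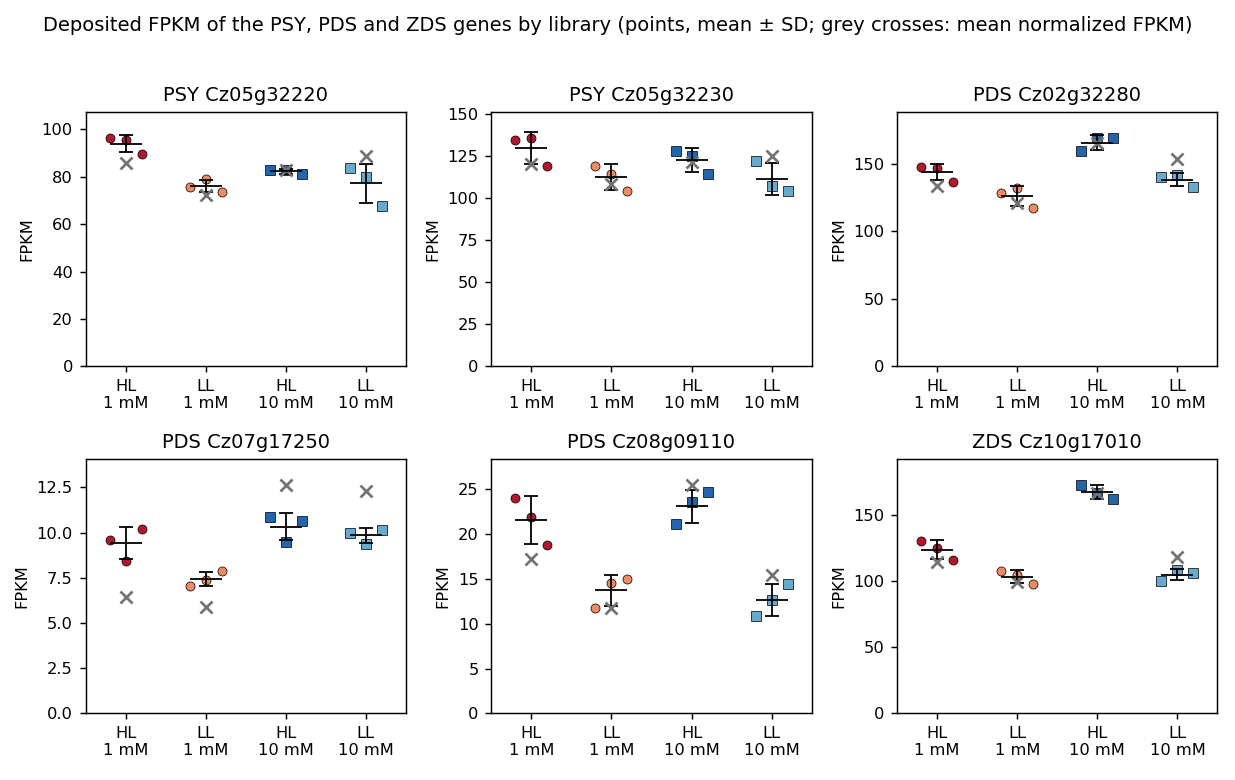
Expression of the 6 genes in each of the 12 libraries, with one panel per gene, deposited FPKM on a vertical axis that starts at 0, points for libraries with the mean and SD of each condition (n = 3), and grey crosses for the mean after quantile normalization. PDS Cz08g09110 sat between 18.7 and 24.6 FPKM in the HL libraries and between 10.8 and 15.0 FPKM in the LL libraries, and ZDS reached 162 to 172 FPKM in HL 10 mM.

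The order of the genes by level changed between conditions. In HL 1 mM it ran from PDS Cz02g32280 (144 ± 6.01 FPKM) over PSY Cz05g32230 (130 ± 9.53) and ZDS (124 ± 7.28) to PSY Cz05g32220 (94.0 ± 3.65), with PSY Cz05g32230 and ZDS overlapping. In LL 1 mM the order was the same, with PDS Cz02g32280 (126 ± 7.41) and PSY Cz05g32230 (113 ± 7.52) overlapping, likewise PSY Cz05g32230 and ZDS (103 ± 4.95), and PSY Cz05g32220 (76.1 ± 2.71) below them. In HL 10 mM ZDS (167 ± 5.25) and PDS Cz02g32280 (166 ± 5.74) overlapped at the top, above PSY Cz05g32230 (122 ± 7.11) and PSY Cz05g32220 (82.3 ± 1.06). In LL 10 mM PDS Cz02g32280 (138 ± 4.57) stood above PSY Cz05g32230 (111 ± 9.43) and ZDS (104 ± 4.18), which overlapped, and PSY Cz05g32220 (77.2 ± 8.38). PDS Cz08g09110 and PDS Cz07g17250 were the last of the 6 in all conditions (all values mean ± SD of deposited FPKM, n = 3).

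The first comparison was between light levels, across both nitrate concentrations (6 HL libraries against 6 LL libraries). A desaturase at each step was higher in HL: PDS Cz08g09110 and ZDS. For PDS Cz08g09110 the difference on the normalized log2 scale was 0.60 ± 0.10 (SE), 1.52-fold, with a limma adjusted p of 0.00216, and for ZDS it was 0.35 ± 0.05, 1.28-fold, with an adjusted p of 0.000612. Thus 2 of the 6 genes were higher and 0 lower in HL, where 5.31% of all genes tested were called higher and 4.45% lower. Both rises passed the test under each of the 4 scalings tried, and 99.2% of all genes had a lower light effect than PDS Cz08g09110.

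The main PDS gene and both PSY genes did not pass in the light comparison. PDS Cz02g32280 had a log2 difference of 0.12 (95% interval 0.02 to 0.22, adjusted p = 0.132), PDS Cz07g17250 of 0.07 (−0.04 to 0.18, adjusted p = 0.462), PSY Cz05g32220 of 0.07 (−0.05 to 0.20, adjusted p = 0.485) and PSY Cz05g32230 of 0.06 (−0.08 to 0.20, adjusted p = 0.671). The median over the 6 genes was 0.10, against 0.01 over all genes. Without quantile normalization PDS Cz02g32280 also passed (0.23, adjusted p = 0.00983), and with libraries scaled to the same sum PSY Cz05g32220 passed as well (0.22, adjusted p = 0.0398). The median light effect of all genes was 0.08 and 0.10 under these scalings.

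Taken at each nitrate level, the light rise was called at 10 mM. In HL 10 mM against LL 10 mM, PDS Cz08g09110 averaged 25.5 ± 1.43 and 15.4 ± 2.52 normalized FPKM (SD, n = 3 each), a log2 difference of 0.70 ± 0.14 (SE, adjusted p = 0.00899). ZDS averaged 167 ± 3.60 normalized FPKM in HL 10 mM and 118 ± 5.6 in LL 10 mM, a log2 difference of 0.50 ± 0.06 (adjusted p = 0.000831). These were 2 of the 6 genes higher and 0 lower, beside 5.81% and 5.67% of all genes. The remaining genes had log2 differences between −0.09 (PSY Cz05g32220) and 0.10 (PDS Cz02g32280).

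In HL 1 mM against LL 1 mM none of the 6 genes passed the limma test, where 2.82% of all genes were called higher and 2.41% lower. PDS Cz08g09110 averaged 17.2 ± 2.73 normalized FPKM in HL 1 mM and 11.7 ± 1.32 in LL 1 mM, a log2 difference of 0.51 with a 95% interval of 0.20 to 0.81 (adjusted p = 0.0620). ZDS averaged 114 ± 5.21 and 98.8 ± 5.07, a log2 difference of 0.21 (interval 0.07 to 0.35, adjusted p = 0.0941). An unadjusted p under 0.05 was found for 3 of the 6 genes, these and PSY Cz05g32220. PDS Cz08g09110 passed when HL 1 mM replicate 3 was left out (adjusted p = 0.0338) and when LL 10 mM replicate 1 was left out (adjusted p = 0.0384).

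Whether the response to light depended on nitrate was asked with the interaction term, the light effect at 1 mM minus that at 10 mM. None of the 6 genes passed, where 3.10% of all genes had a higher and 2.37% a lower interaction. ZDS had −0.29 (95% interval −0.49 to −0.09, adjusted p = 0.0905) and PSY Cz05g32220 had 0.33 (0.08 to 0.57, adjusted p = 0.104), the only ones with an unadjusted p under 0.05. The estimates for the 3 PDS genes lay between −0.19 and 0.07. The ZDS term passed under each of the 3 other scalings, at −0.41 without quantile normalization (adjusted p = 0.0319), −0.51 with equal medians (adjusted p = 0.0487) and −0.40 with equal sums (adjusted p = 0.0367). The PSY Cz05g32220 term passed without LL 10 mM replicate 3, the library with the lowest value of that gene (0.42, adjusted p = 0.0457).

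The second comparison was between nitrate levels, across both lights (6 libraries at 1 mM against 6 at 10 mM). After quantile normalization all 3 PDS genes and ZDS were lower at 1 mM, which is 4 of 6 genes lower and 0 higher, where 36.7% of all genes were called lower and 27.8% higher. The log2 differences were −0.91 ± 0.05 for PDS Cz07g17250 (SE, adjusted p = 4.42e-08), −0.46 ± 0.10 for PDS Cz08g09110 (adjusted p = 0.00155), −0.40 ± 0.05 for ZDS (adjusted p = 2.32e-05) and −0.32 ± 0.05 for PDS Cz02g32280 (adjusted p = 7.61e-05). PSY Cz05g32220 had −0.12 (95% interval −0.24 to 0.00, adjusted p = 0.0835; −0.16 and 0.00990 without LL 10 mM replicate 3) and PSY Cz05g32230 had −0.11 (−0.25 to 0.03, adjusted p = 0.158). The median over the 6 genes was −0.36, against −0.06 over all genes.

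The direction of the nitrate effect depended on the scaling for both PSY genes, PDS Cz08g09110 and PDS Cz02g32280. Without quantile normalization 3 of the 6 genes were lower and 0 higher, beside 9.96% and 61.6% of all genes, and PDS Cz08g09110 had a log2 difference of 0.01 (adjusted p = 0.945). With libraries scaled to the same median all 6 genes were lower, beside 39.7% of all genes, while with libraries scaled to the same sum 2 were higher, PSY Cz05g32220 (0.26, adjusted p = 0.00353) and PSY Cz05g32230 (0.23, adjusted p = 0.00694), and 0 were lower, beside 74.1% and 5.62% of all genes. The median of all genes moved with the scaling too, at −0.06, 0.32, −0.07 and 0.47 for quantile normalization, no scaling, equal medians and equal sums. Relative to that median each of the 6 genes had a negative nitrate effect under each of the 4 scalings. Apart from quantile normalization the scalings differ only by a single factor per library, so their agreement is not separate evidence. The distance to the median of all genes was −0.85, −0.56, −0.64 and −0.55 for PDS Cz07g17250 in the same order of scalings, −0.33, −0.54, −0.67 and −0.51 for ZDS, and −0.26, −0.49, −0.62 and −0.46 for PDS Cz02g32280. For PSY Cz05g32220 it was −0.06, −0.23, −0.36 and −0.20, and for PSY Cz05g32230 it was −0.05, −0.26, −0.40 and −0.24, the values nearest to 0. After quantile normalization 44.4% and 45.3% of all genes had a lower nitrate effect than PSY Cz05g32220 and PSY Cz05g32230, so both lay near the middle on that scale. Without quantile normalization these shares were 28.2% and 24.7%. PDS Cz08g09110 lay between these sets, with −0.40, −0.31, −0.42 and −0.29.

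**Figure D2:**
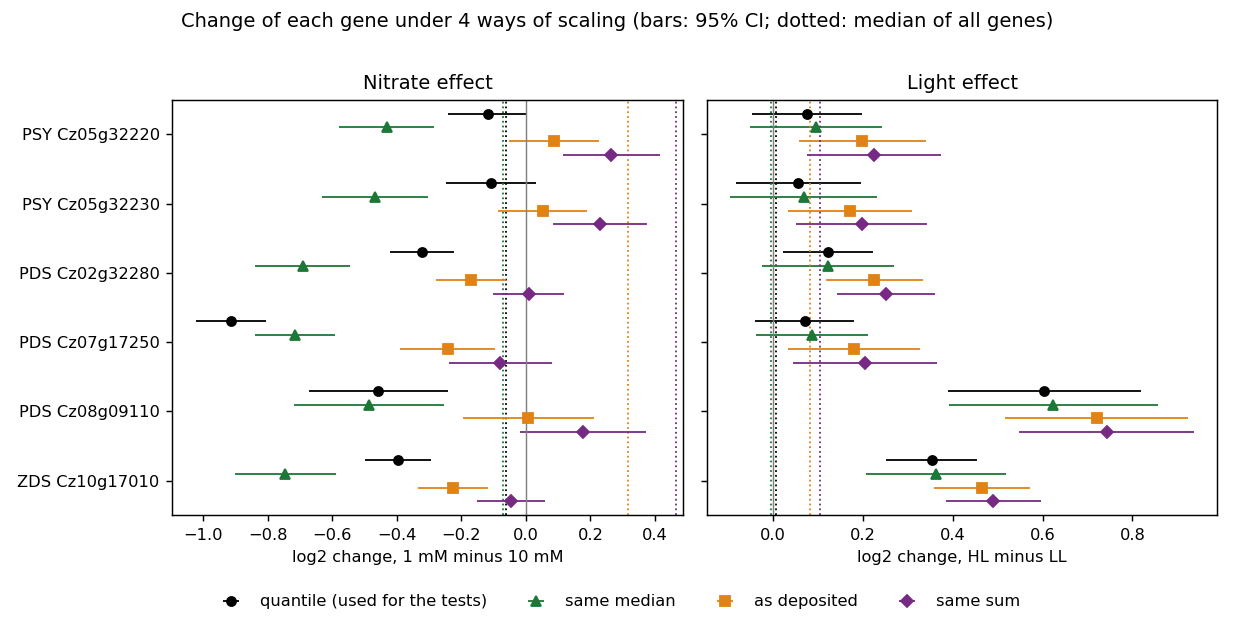
Nitrate effect (left) and light effect (right) of the 6 genes on a log2 axis under 4 scalings of the libraries, with 95% intervals and with the median change of all genes marked for each scaling. The light rises of PDS Cz08g09110 (0.60 to 0.74) and ZDS (0.35 to 0.49) stay above 0. The nitrate effects of both PSY genes, PDS Cz08g09110 and PDS Cz02g32280 change sign between scalings, and those of all 6 genes stay below the median of all genes.

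At each light level the same comparison called 4 of the 6 genes lower. In LL 1 mM against LL 10 mM these were PDS Cz07g17250 (−0.95, adjusted p = 3.02e-06), PDS Cz02g32280 (−0.34, adjusted p = 0.00150), PSY Cz05g32220 (−0.28, adjusted p = 0.0128) and ZDS (−0.25, adjusted p = 0.00868), where 25.2% of all genes were called lower and 21.3% higher. PDS Cz08g09110 (−0.36, adjusted p = 0.0512) and PSY Cz05g32230 (−0.20, adjusted p = 0.0605) did not pass. PSY Cz05g32220 averaged 72.4 ± 2.75 normalized FPKM in LL 1 mM and 88.6 ± 9.41 in LL 10 mM, and its call was lost without LL 10 mM replicate 2 (adjusted p = 0.0526). PDS Cz08g09110 in turn passed without replicate 1 (adjusted p = 0.0492) or replicate 3 (0.0310) of HL 1 mM, and without replicate 1 of LL 10 mM (0.0129), and PSY Cz05g32230 without LL 1 mM replicate 1 (0.0499).

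In HL 1 mM against HL 10 mM the genes called lower were all 3 PDS genes and ZDS, where 33.2% of all genes were lower and 24.7% higher. ZDS averaged 114 ± 5.21 normalized FPKM in HL 1 mM and 167 ± 3.60 in HL 10 mM, a log2 difference of −0.54 (adjusted p = 5.12e-05). PDS Cz08g09110 differed by −0.55 (adjusted p = 0.00560), PDS Cz07g17250 by −0.88 (adjusted p = 3.48e-06) and PDS Cz02g32280 by −0.30 (adjusted p = 0.00220). The PSY genes did not pass, with 0.05 (95% interval −0.13 to 0.22) for Cz05g32220 and −0.01 (−0.19 to 0.17) for Cz05g32230. With equal sums the nitrate contrast in HL had 2 genes higher and 1 lower, where 66.3% of all genes were higher and 5.95% lower, and in LL no gene passed in either direction, where 67.8% were higher and 3.79% lower.

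With both stresses together, in HL 1 mM against LL 10 mM, 2 of the 6 genes were lower after quantile normalization and 0 higher, where 28.8% of all genes were lower and 25.0% higher. These were PDS Cz07g17250 (−0.84, adjusted p = 3.89e-06) and PDS Cz02g32280 (−0.20, adjusted p = 0.0216). PDS Cz08g09110 (0.15, 95% interval −0.16 to 0.45) and ZDS (−0.04, −0.19 to 0.10), which were higher in HL and lower at 1 mM, did not pass when both were applied. PSY Cz05g32220 and PSY Cz05g32230 had −0.04 and −0.05. The PDS Cz02g32280 call was lost without replicate 2 (adjusted p = 0.0512) or replicate 3 (0.0684) of HL 1 mM, or replicate 2 of LL 10 mM (0.0781), and the counts moved with the scaling. They were 4 higher and 0 lower without quantile normalization, where 62.1% of all genes were higher and 6.89% lower. With equal medians 0 were higher and 5 lower (23.7% and 32.9% of all genes), and with equal sums 5 were higher and 0 lower (74.1% and 4.11%). These contrasts share condition means, so they do not count as separate evidence.

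**Figure D3:**
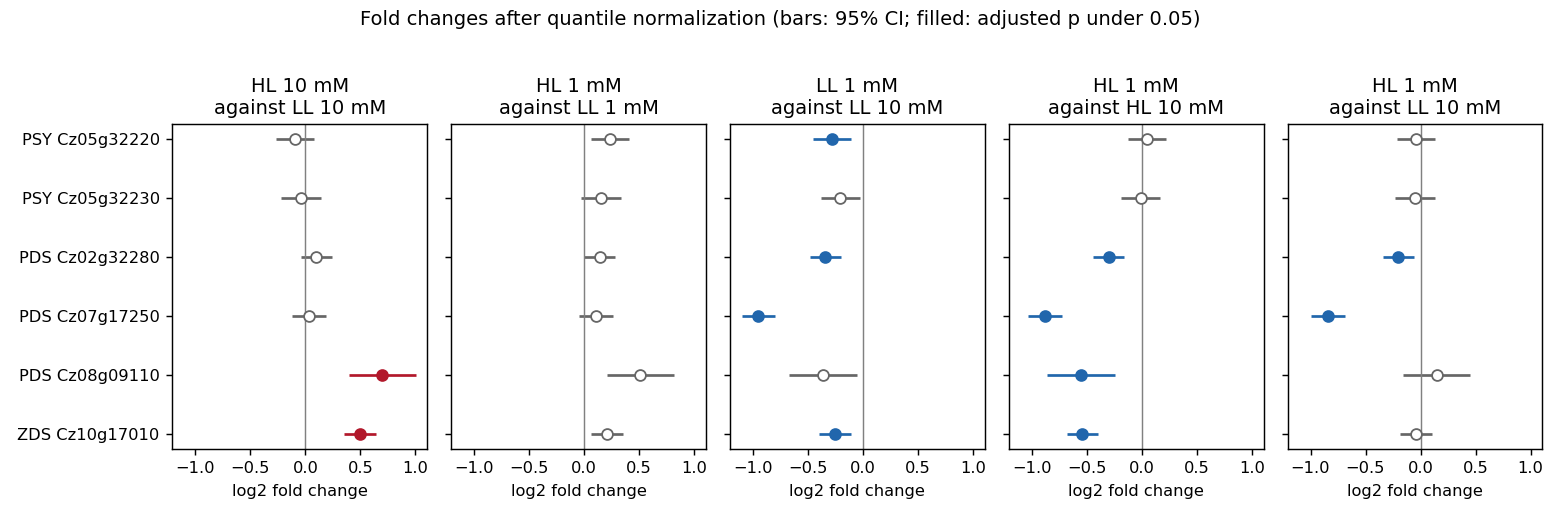
Log2 fold changes of the 6 genes in the 5 comparisons between conditions, one panel each, on the quantile-normalized scale, with horizontal bars for 95% intervals, filled points (red higher, blue lower) for an adjusted p under 0.05 and open points for the rest. PDS Cz08g09110 (0.70) and ZDS (0.50) lie to the right of 0 in HL 10 mM against LL 10 mM, and PDS Cz07g17250 lies farthest to the left in the 3 comparisons of 1 mM with 10 mM (−0.84 to −0.95).

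Ratios of deposited values within a library do not change when all values of the library are multiplied by 1 factor, though quantile normalization does change them. For each of 5 ratios the effect of light and of nitrate was tested by an exact two-sided permutation within the levels of the other factor. The smallest possible p is 0.005, and p-values were adjusted over the 10 tests. A single test at that smallest p could not pass after adjustment unless others came close to it. A ratio that did not pass is therefore not shown to be unchanged. PSY Cz05g32220 stood at 0.725, 0.677, 0.674 and 0.694 of PSY Cz05g32230 in HL 1 mM, LL 1 mM, HL 10 mM and LL 10 mM. The log2 ratio differed by 0.04 for nitrate (exact p = 0.480, adjusted p = 0.600) and by 0.03 for light (exact p = 0.605, adjusted p = 0.672). Neither difference was larger than the spread of the ratio between libraries.

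Among the PDS genes, the nitrate effect of Cz07g17250 stood out from that of Cz02g32280 by 0.59 on the quantile-normalized log2 scale. The ratio of the deposited values within each library differed by 0.09 on the log2 scale between 1 mM and 10 mM (exact p = 0.340, adjusted p = 0.486), by −0.07 in HL and by 0.26 in LL. Cz07g17250 had −0.24 ± 0.07 (SE) without quantile normalization, against −0.91 with it, and Cz02g32280 had −0.17 ± 0.05 and −0.32.

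The ratio of PDS Cz08g09110 to PDS Cz07g17250 was 1.83 to 2.57 in HL 1 mM, 1.65 to 1.94 in LL 1 mM, 1.93 to 2.47 in HL 10 mM and 1.08 to 1.41 in LL 10 mM. It was lowest in LL 10 mM, with no overlap with the other conditions. On the log2 scale it was 0.56 higher in HL than in LL (exact p = 0.015, adjusted p = 0.0750) and 0.28 higher at 1 mM than at 10 mM (exact p = 0.080, adjusted p = 0.200), and neither passed after adjustment. When HL 1 mM replicate 3 was left out, they were 0.64 for light and 0.35 for nitrate, both with an adjusted p at the threshold of 0.05.

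ZDS per summed PDS was 0.698 to 0.717 in HL 1 mM, 0.680 to 0.729 in LL 1 mM, 0.793 to 0.902 in HL 10 mM and 0.619 to 0.670 in LL 10 mM. The log2 ratio was 0.19 higher in HL (exact p = 0.040, adjusted p = 0.133). It was 0.37 higher in HL 10 mM than in LL 10 mM, whereas HL 1 mM and LL 1 mM overlapped (0.01), and the difference between these effects was not tested. For nitrate the difference was −0.07 (exact p = 0.340, adjusted p = 0.486).

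Summed PSY per summed PDS was 1.26 to 1.31 in HL 1 mM, 1.25 to 1.33 in LL 1 mM, 0.957 to 1.10 in HL 10 mM and 1.09 to 1.28 in LL 10 mM. The log2 ratio was 0.23 higher at 1 mM than at 10 mM (exact p = 0.015, adjusted p = 0.0750), with overlap in LL. For light it was −0.09 (exact p = 0.125, adjusted p = 0.250).

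**Figure D4:**
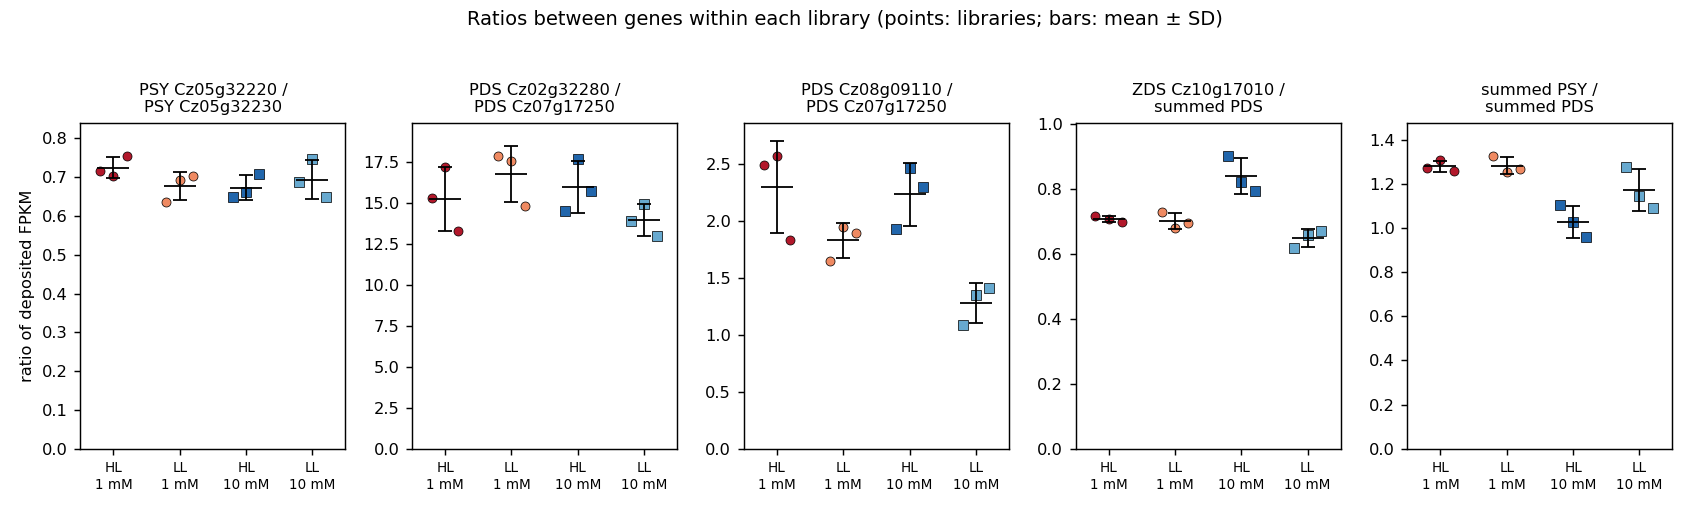
Ratios of deposited FPKM within each library, with one panel per ratio, a linear vertical axis from 0, and points for libraries with the mean and SD of each condition (n = 3). ZDS per summed PDS lies at 0.793 to 0.902 in HL 10 mM, above the other conditions, and the ratio of the PSY genes lies between 0.636 and 0.755 in all 12 libraries.

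The likeness of expression profiles was measured as the root mean square difference between log2 profiles over the 12 libraries, each centred on its own mean, as a description with no test. Of 14915 other genes, the closest to PSY Cz05g32220 was PSY Cz05g32230, at 0.07, and PSY Cz05g32220 ranked 3 for PSY Cz05g32230. Without quantile normalization the ranks were 5 and 6. Whether these genes are similar enough in sequence to share reads was not analysed here, and if they are, their separate values are uncertain. The rows with the identifiers before and after the pair, which the files do not name, were tested on the quantile-normalized scale. Cz05g32210 did not pass for nitrate (0.12, adjusted p = 0.0761), and Cz05g32240 rose at 1 mM (0.42, adjusted p = 0.00157) and fell in HL (−0.32, adjusted p = 0.0441).

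Among the pathway genes ZDS was most like ZISO (Cz10g17130), which acts on ζ-carotene just before it, at a distance of 0.09 and rank 8 of all other genes. On the quantile-normalized scale ZISO was itself higher in HL (0.35, adjusted p = 0.00408) and lower at 1 mM (−0.44, adjusted p = 8.01e-05). PDS Cz08g09110 had ZDS (0.19, rank 16) and ZISO (0.19, rank 17) as its closest pathway genes, but without quantile normalization ZDS ranked 91 and CRTISO1 (Cz12g03260), an isomerase, was nearest (0.19, rank 36). Of the pathway genes PDS Cz02g32280 was closest to CYP97C (Cz09g07100), a hydroxylase of lutein synthesis, at 0.08 and rank 37. For PDS Cz07g17250 the closest pathway gene was VDE Cz06g02070, a violaxanthin de-epoxidase of the xanthophyll cycle, at 0.16 and rank 147. Without quantile normalization, however, that VDE gene ranked 1231 and PDS Cz02g32280 was the nearest pathway gene. Outside the pair, the closest pathway gene to PSY Cz05g32220 was PDS Cz02g32280 (0.14, rank 837), and that to PSY Cz05g32230 was CRUP (Cz07g07080), a cyclase-like gene (0.14, rank 1464).

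The other 19 genes of the list were also tested on the quantile-normalized scale. For light 7 were higher and 4 lower, with 3 of 4 isomerases and 2 of 4 cyclases higher, and 0 of 5 xanthophyll cycle and neoxanthin genes higher and 2 lower. For nitrate 6 were higher and 11 lower at 1 mM, with 3 of 4 isomerases lower and 1 higher, and 1 of the 2 ketolases in each direction. For the interaction 3 were higher, all of them xanthophyll cycle and neoxanthin genes, and 1 hydroxylase was lower. Their median was 0.12 for light and −0.21 for nitrate, beside 0.10 and −0.36 for the 6 genes of the first steps.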

How the data were processed

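RNA-seq libraries (stranded, polyadenylated RNA) were mapped and quantified by the authors with the MARACAS pipeline (FastQC, HISAT2, StringTie) on the *C. zofingiensis* genome. The deposited values are decimals without a named unit and were read as FPKM, since their sums differ between libraries (956599 to 1126292). They are not quantile-normalized. The table holds no counts, so the depth of each gene's value is unknown here and no counting interval is given.

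From these values 358 genes at 0 in all 12 libraries were dropped. The rest were quantile-normalized, taken as log2(FPKM + 1), which understates changes of low genes, and fitted with limma 3.58.1 in R 4.3.3. A model with light and nitrate kept their interaction where its p was under 0.05, and 5 contrasts between conditions were taken from all 12 libraries. P-values were adjusted over 14916 genes by the Benjamini-Hochberg method, and calls needed an adjusted p under 0.05 with no fold minimum. With 3 libraries against 3, an exact permutation cannot go below 0.1. Log2 ratios within libraries used a pseudocount of 0.1. The test scripts were tested on simulated data. Alternatives were the pseudocount, a filter on low values, other scalings, the empirical Bayes step, the fit, a replicate block and leaving out each library; the likeness without quantile normalization was added after seeing the data. The genes and lists were chosen with earlier results of these data known, and of the other pathway genes the one with the closest profile to each gene is named. Sequences and coordinates were not analysed here.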

Additional observations from a re-analysis of the deposited data

How the results depend on the processing

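The light rises of PDS Cz08g09110 and ZDS kept their direction and their call under every alternative, and the counts for the light effect and for HL 10 mM against LL 10 mM stayed at 2 genes when any library was left out. The scaling decided most nitrate contrasts, and the cause was not tested. Without a fold minimum small differences can be called, and without counts the depth behind each value is unknown. In all, 38 of the values of single genes changed sign under another setting, as listed here, and 10 when a library was left out.

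Without quantile normalization 2 genes were lower in HL 1 mM against HL 10 mM, where 53.6% of all genes were higher and 10.3% lower. In HL 1 mM against LL 1 mM 1 was higher (4.68% of all genes higher and 1.08% lower), and in HL 1 mM against LL 10 mM 4 were higher (62.1% and 6.89%). In LL 1 mM against LL 10 mM 1 was lower (53.4% and 6.60%), and for the interaction 1 was lower (4.31% and 3.53%). The nitrate effect became 0.087 for PSY Cz05g32220, 0.052 for PSY Cz05g32230 and 0.0075 for PDS Cz08g09110 (log2 here and below). LL 1 mM against LL 10 mM became 0.019 for PSY Cz05g32230 and 0.11 for PDS Cz08g09110, and HL 1 mM against HL 10 mM 0.084 for PSY Cz05g32230. HL 10 mM against LL 10 mM became 0.10 for PSY Cz05g32220 and 0.14 for PSY Cz05g32230. HL 1 mM against LL 10 mM became 0.29 for PSY Cz05g32220, 0.22 for PSY Cz05g32230, 0.055 for PDS Cz02g32280 and 0.24 for ZDS, and the interaction of PDS Cz02g32280 −0.067.

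With libraries scaled to the same median 5 genes were lower in HL 1 mM against LL 10 mM, where 23.7% of all genes were higher and 32.9% lower. For the interaction 1 was lower (4.00% of all genes higher and 4.60% lower). The interaction became −0.035 for PSY Cz05g32230 and −0.17 for PDS Cz02g32280, HL 1 mM against HL 10 mM −0.38 for PSY Cz05g32220, and HL 10 mM against LL 10 mM 0.043 for PSY Cz05g32220 and 0.085 for PSY Cz05g32230.

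With libraries scaled to the same sum 2 genes were higher for nitrate, where 74.1% of all genes were higher and 5.62% lower. For light 4 were higher (17.4% of all genes higher and 2.29% lower), and for the interaction 1 was lower (3.81% and 2.78%). In LL 1 mM against LL 10 mM 0 were called (67.8% and 3.79%). In HL 1 mM against LL 1 mM 3 were higher (6.38% and 0.999%), and in HL 1 mM against LL 10 mM 5 were higher (74.1% and 4.11%). The nitrate effect became 0.26 and 0.23 for PSY Cz05g32220 and Cz05g32230, 0.0084 for PDS Cz02g32280 and 0.18 for PDS Cz08g09110. LL 1 mM against LL 10 mM became 0.16 and 0.19 for the PSY genes, 0.035 for PDS Cz02g32280, 0.27 for PDS Cz08g09110 and 0.15 for ZDS. HL 1 mM against HL 10 mM became 0.27 for PSY Cz05g32230, 0.046 for PDS Cz07g17250 and 0.080 for PDS Cz08g09110. HL 10 mM against LL 10 mM became 0.12 and 0.16 for the PSY genes. HL 1 mM against LL 10 mM became 0.49 and 0.43 for the PSY genes, 0.26 for PDS Cz02g32280, 0.13 for PDS Cz07g17250 and 0.44 for ZDS, and the interaction of PDS Cz02g32280 −0.054.

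A filter on mean FPKM under 1 and a trended, robust empirical Bayes step each called 1 gene in HL 1 mM against LL 1 mM. Of all genes 3.79% were higher and 3.16% lower with the filter, and 3.35% and 2.96% with the empirical Bayes step. Leaving out each library in turn gave 4 to 5 genes for nitrate, 2 to 2 for light, 0 to 1 for the interaction, 3 to 5 in LL 1 mM against LL 10 mM, 4 to 4 in HL 1 mM against HL 10 mM, 0 to 1 in HL 1 mM against LL 1 mM and 1 to 2 in HL 1 mM against LL 10 mM. Signs changed within the ranges of HL 1 mM against HL 10 mM for PSY Cz05g32230 (−0.063 to 0.041), HL 1 mM against LL 10 mM for PSY Cz05g32220 (−0.13 to 0.010) and PSY Cz05g32230 (−0.086 to 0.0031), HL 10 mM against LL 10 mM for PSY Cz05g32230 (−0.076 to 0.013) and PDS Cz07g17250 (−0.011 to 0.072), and the interaction of PDS Cz02g32280 (−0.0057 to 0.071). Of the log2 ratios, PDS Cz02g32280 over Cz07g17250 ranged from −0.017 to 0.075 for light, PDS Cz08g09110 over Cz07g17250 from 0.50 to 0.64 for light and 0.22 to 0.35 for nitrate, and summed PSY over summed PDS from 0.20 to 0.26 for nitrate.

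The replicate numbers were not taken to pair the libraries, since not every same-numbered pair had a correlation of deviations over 0.1 (13 of 18 did, −0.06 to 0.47). However, 9 of 12 libraries correlated best with their own number, a hint from the data that numbers may share something. A sampling day is a possible candidate, which was not tested. With the replicate number as a block 6 genes were lower at 1 mM, with PSY Cz05g32220 (adjusted p = 0.0410) and PSY Cz05g32230 (0.0315) added. Of all genes 38.2% were then lower and 29.0% higher. In LL 1 mM against LL 10 mM 5 were lower, with PSY Cz05g32230 added (0.0117), beside 27.7% of all genes lower and 23.7% higher. For the interaction 1 was higher, PSY Cz05g32220 (0.33, 0.0489), beside 5.37% of all genes higher and 5.24% lower. In HL 1 mM against LL 1 mM, where all 3 same-numbered pairs were over 0.1 (0.16 to 0.47), the block still called 0. Of all genes 4.50% were higher and 4.27% lower there.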
